A study of Mus musculus with 9 samples.

Results

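Ncor1, Klf9 and Gadd45g are 3 genes of thyroid hormone signalling among the 1525 genes that the authors' deposited table of adult mouse liver RNA-seq listed as differing between genotypes. They were chosen by name, with the deposited genotype means of these same libraries in view and listing itself resting on a threshold of fold and an unadjusted p, so each difference below is a description of values that took part in the choice and carries no test. All 3 had a lower mean in Alb-D2KO than in control liver, by 1.24-fold for Ncor1, 1.66-fold for Klf9 and 4.75-fold for Gadd45g. Livers came from adult mice of the strain C57BL/6 by the labels, given as C57BL/6J in the study's methods. The 5 control livers came from mice labelled cre in the sample titles. The 4 Alb-D2KO livers, labelled ko, carried a Cre recombinase driven by the albumin promoter together with a floxed Dio2 allele. The study describes the resulting inactivation of Dio2 as specific to hepatocytes, which was not checked here. By the study's methods, controls expressed Cre as well, so the transgene was shared by both genotypes, and the mice were fed chow.

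Thyroid hormone acts through nuclear receptors that sit on their response elements with or without ligand. Without triiodothyronine (T3) the receptor holds a corepressor complex, and binding of T3 exchanges it for coactivators. Dio2 encodes the type 2 deiodinase, which converts thyroxine to T3. By the study, the liver expresses Dio2 briefly after birth and silences it later, so adult liver is sampled after that period. Ncor1 encodes the nuclear receptor corepressor 1, the scaffold that brings histone deacetylase 3 to the unliganded receptor. Klf9 encodes a Krüppel-like zinc finger factor whose transcription T3 and glucocorticoids raise in several tissues. Gadd45g encodes a small stress-inducible protein of the growth arrest and DNA damage family, whose members take part in stress kinase signalling and have been linked to active DNA demethylation. The comparison asks how adult expression of these genes differs when the deiodinase was lost from hepatocytes.

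The 3 genes lie on different chromosomes. A promoter window at the first RefSeq start of each is printed because all 3 had a lower mean in Alb-D2KO liver. Each window runs from 250 bases before to 50 bases after a RefSeq transcript start on build GRCm38.p6 (mm10), 5′ to 3′ on the strand of the gene. Capitals mark matches to the motifs described below. The Ncor1 window is chr11:62457283-62457582 on the minus strand, the Klf9 window is chr19:23140976-23141275 on the plus strand, and the Gadd45g window is chr13:51846425-51846724 on the plus strand. The Ncor1 window lies inside the gene as GENCODE annotates it, with a 5′ end at chr11:62458541. A promoter at that end is therefore not covered by the window or its motif matches.
Ncor1: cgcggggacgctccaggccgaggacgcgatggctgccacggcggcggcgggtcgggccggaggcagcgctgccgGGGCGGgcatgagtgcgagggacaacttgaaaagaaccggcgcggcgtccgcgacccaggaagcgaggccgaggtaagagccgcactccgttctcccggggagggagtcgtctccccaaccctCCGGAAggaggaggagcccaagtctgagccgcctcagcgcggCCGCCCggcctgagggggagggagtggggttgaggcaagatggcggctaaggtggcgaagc
Klf9: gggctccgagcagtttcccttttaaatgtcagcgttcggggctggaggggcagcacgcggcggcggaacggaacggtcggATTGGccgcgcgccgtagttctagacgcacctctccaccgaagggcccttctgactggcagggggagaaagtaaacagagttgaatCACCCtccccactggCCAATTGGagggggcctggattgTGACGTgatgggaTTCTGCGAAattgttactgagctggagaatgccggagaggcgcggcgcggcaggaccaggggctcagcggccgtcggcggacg
Gadd45g: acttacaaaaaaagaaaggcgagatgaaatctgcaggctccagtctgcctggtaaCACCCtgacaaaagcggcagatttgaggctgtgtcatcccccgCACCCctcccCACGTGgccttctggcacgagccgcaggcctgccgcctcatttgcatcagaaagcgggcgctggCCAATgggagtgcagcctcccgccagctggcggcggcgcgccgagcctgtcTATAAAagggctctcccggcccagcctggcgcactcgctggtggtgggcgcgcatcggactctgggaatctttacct

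The windows were rich in CpG, the dinucleotide at which mammalian DNA is methylated. The Ncor1 window held 36 CpG and was 72.3% G or C. The Klf9 window held 28 CpG and the Gadd45g window 21, against a median of 7 over 32817 RefSeq windows. Fewer CpG were found in 93.8% of windows for Ncor1, 85.8% for Klf9 and 75.2% for Gadd45g. A second RefSeq start of Ncor1, at chr11:62438466-62438765, was unlike the first, with 2 CpG and 38.3% G or C.

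None of the windows held the half-site AGGTCA bound by thyroid hormone receptors, on either strand, so none could hold 2 such half-sites 4 bases apart. That half-site occurred in 16.3% of all windows, and the spaced repeat in 0.0152%. Response elements outside the windows were not searched. The Ncor1 window had a CCGGAA core of ETS factors at -53 from the start, a motif in 14.9% of windows, and GC boxes (GGGCGG, 35.6% of windows) at -176 and, on the other strand, at -11. The NRF1 core GCATGCGC, found in 2.71% of windows, had no exact match in any of the printed windows. The study reported Nrf1 and Elk1 footprints at the Ncor1 promoter, within a region of reduced chromatin accessibility. The place of that region was not compared with the Ncor1 window, so the missing exact match does not bear on those footprints. The Klf9 window had a cAMP response half-site (TGACGT, 7.51% of windows) at -46, followed by a STAT-type palindrome (TTCNNNGAA, 8.29% of windows) at -33. It also held CCAAT boxes, of which those at -69 and -66 overlap on opposite strands, and a CACCC box at -84. The Gadd45g window had a TATA box (TATAAA, 13.6% of windows) at -27, a CCAAT box at -78, an E-box (CACGTG, 7.15% of windows) at -142 and CACCC boxes at -152 and -195. CCAAT and CACCC are short and were found in 37.4% and 57.5% of windows. Positions count back from the transcript start and give the leftmost base as printed. These matches describe the letters of the window and do not show a bound factor.

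The gene values are mean estimated counts per genotype as the authors deposited them, without scaling for library depth. Values of single libraries for a gene are not analysed here, so no SD can be given for a gene and no difference can be set against the spread between animals. Because depth enters these means directly, it is described first. Reads fully within an exon, taken here as assigned reads, ran from 29692773 to 37016072 over the control libraries and from 28864613 to 36332719 over the Alb-D2KO libraries. Their mean log2 difference (Alb-D2KO minus control) was -0.10, which did not exceed the spread between libraries (exact permutation test, two-sided, p = 0.302). The p-value of that test was 0.362 when adjusted by the Benjamini-Hochberg method for 12 library measures. The estimated count of the median gene ran from 61 to 79.1 in control and from 51 to 74 in Alb-D2KO libraries, and the log2 difference was -0.18 (exact permutation p = 0.175, and 0.327 when adjusted). Before adjustment 0 of the 12 library measures passed 0.05. The labels give no batch, and p-values here set a difference between genotypes against the spread between these 9 libraries.

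**Figure D1:**
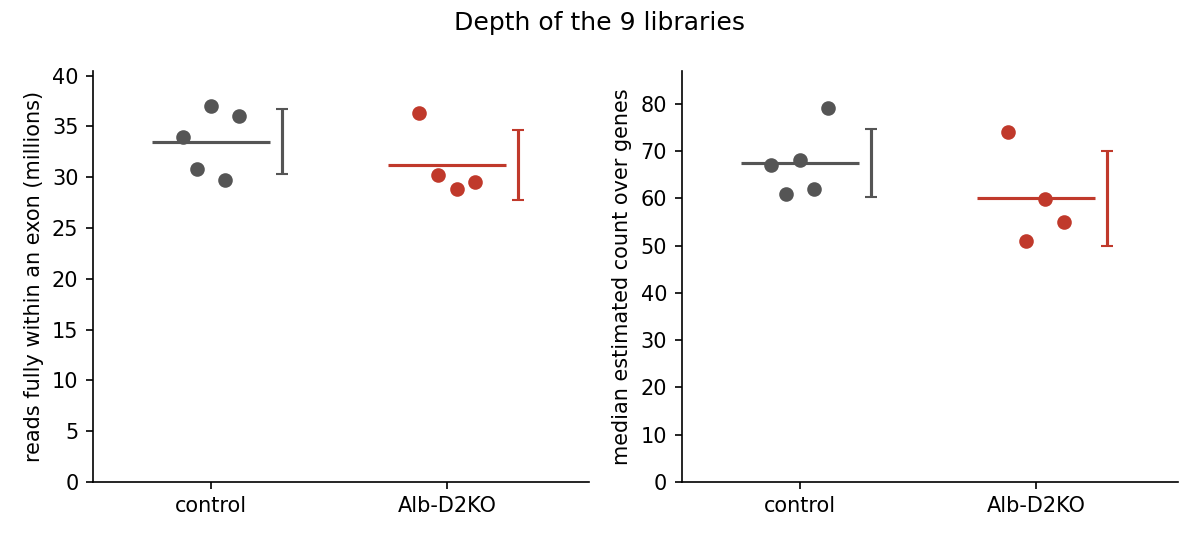
Reads fully within an exon, in units of 1000000 (left), and the median estimated count over genes (right) for each of the 9 libraries, with 1 point per library, a horizontal line at the genotype mean and a bar of 1 SD. The genotypes overlap on both measures, and the Alb-D2KO means are the lower ones.

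Gadd45g showed the largest relative difference of the 3. Its mean was 511.8 estimated counts in control and 107.8 in Alb-D2KO liver. The Alb-D2KO to control ratio was 0.211, a 4.75-fold lower mean (log2 ratio -2.25), with a Clopper-Pearson 95% interval of 0.190 to 0.233. This and the following intervals cover counting error only and say nothing of the spread between animals. RNA came from whole liver, in which fewer cells of a type and less RNA per cell cannot be told apart. The summed count over the 9 libraries was 2990, of which 431.0 came from the 4 Alb-D2KO livers together.

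That sum sets a limit on single livers even though their values are not given. No Alb-D2KO library can have held more than 431.0 estimated counts of Gadd45g, which is below the control mean of 511.8, so at least 1 control library exceeded all 4 Alb-D2KO libraries. The means do not show how many control libraries did. If 4 control livers had been at the Alb-D2KO mean, 1 further liver with 2128 estimated counts would have given the same control mean. The levels within each genotype's libraries are a further guide. The control mean of Gadd45g was 0.942 times the average upper quartile of gene values in control libraries, and the Alb-D2KO mean was 0.215 times that in Alb-D2KO libraries. It remained above the median gene of all 4 Alb-D2KO libraries.

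Klf9 had far higher estimated counts than Gadd45g, with no allowance here for its longer transcript. Its mean was 5482 estimated counts in control and 3296 in Alb-D2KO liver. The ratio was 0.601, or 1.66-fold lower (log2 ratio -0.73, counting interval 0.589 to 0.614). The summed count was 40596, and both means lay above the upper quartile of every library of their genotype. In absolute terms Klf9 differed most of the 3, by 2186 estimated counts per library on average, against 404.05 for Gadd45g.

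Ncor1 showed the smallest relative difference. Its mean was 5113 estimated counts in control and 4109 in Alb-D2KO liver. The ratio was 0.804, or 1.24-fold lower (log2 ratio -0.32, counting interval 0.788 to 0.820), from a summed count of 42005. The mean difference was 1004 estimated counts per library. For Klf9 and Ncor1 no single-library limit like that of Gadd45g follows, because the Alb-D2KO sums, 13185 and 16438, exceed the control means.

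**Figure D2:**
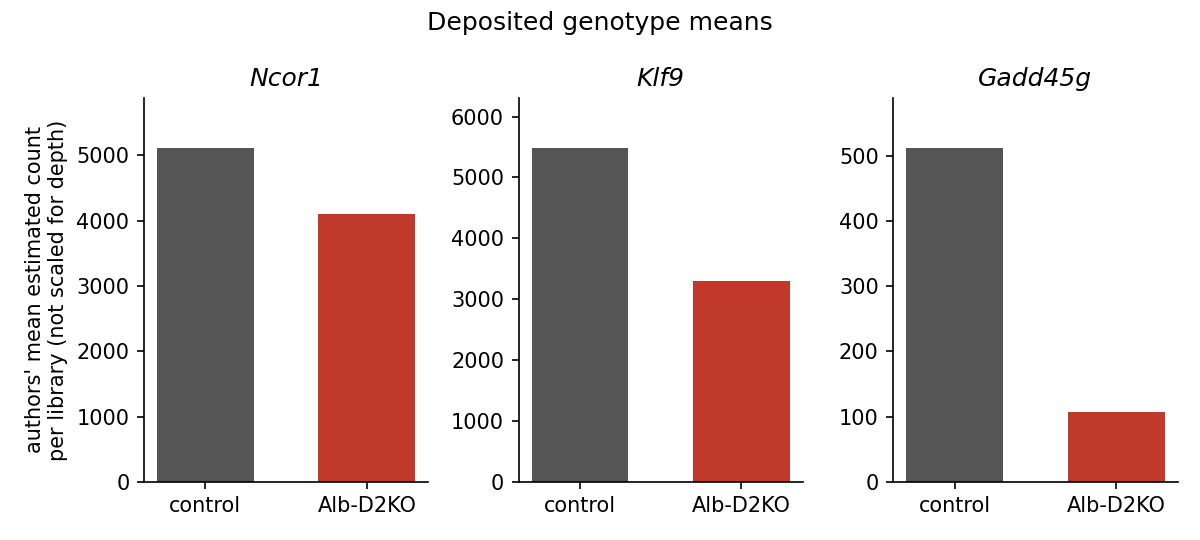
The authors' mean estimated count per library for Ncor1, Klf9 and Gadd45g in control (grey) and Alb-D2KO (red) liver, each on its own axis from 0; there are no error bars because values per library are not analysed here. The control and Alb-D2KO bars stand at 5113 and 4109 for Ncor1, 5482 and 3296 for Klf9, and 511.8 and 107.8 for Gadd45g.

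All 3 members were lower in Alb-D2KO liver, in a list where 89.4% of the 1525 genes were lower. Klf9 and Gadd45g, or 2 of 3, were at least 1.5-fold lower, against 45.1% of listed genes. Gadd45g alone, 1 of 3, was at least 2-fold lower, against 16.3%. Since the members were chosen with these ratios known, nothing is read from those counts. By rank, Gadd45g had the 9th smallest ratio of the 1363 lower genes, Klf9 the 502nd and Ncor1 the 1321st. Ncor1 was therefore close to the edge of the list, whose smallest fold among lower genes was 1.21. The last lower genes were Atl3 (ratio 0.819), Cds2 (0.821) and Cth (0.826), and no values were given beyond them.

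**Figure D3:**
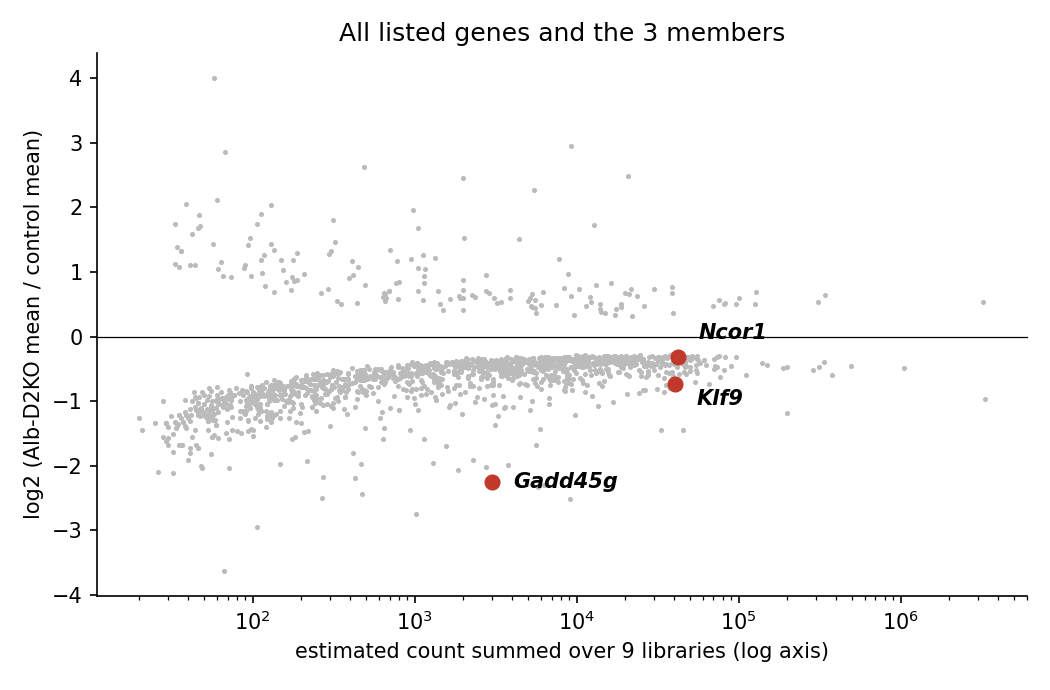
Log2 ratio of the Alb-D2KO mean to the control mean (vertical axis) against the estimated count summed over 9 libraries (horizontal axis, log scale), with 1 grey point per listed gene and the members in red. Ncor1 (-0.32) sits at the upper edge of the band of lower genes, Klf9 (-0.73) on its lower side and Gadd45g (-2.25) far below it; the gap around 0 is where genes were not listed.

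Each member was also placed among the lower genes whose summed count was within 2-fold of its own. Of 291 such genes, 1 had a smaller ratio than Gadd45g, and their median ratio was 0.726. Of 139 such genes, 10 had a smaller ratio than Klf9, with a median of 0.753. For Ncor1 the order was the other way, as 118 of 138 genes had a smaller ratio.

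The genes nearest in ratio at a similar summed count differed for each member. Likeness here is the distance between log2 ratios, which rests on only the 2 genotype means. Nearest to Gadd45g were Cish (0.199), a growth hormone-induced inhibitor of STAT5 signalling that is the gene with the smaller ratio above, Mt2 (0.240), which encodes a metallothionein, and the cell cycle factor E2f8 (0.246). Nearest to Klf9 were Hhex (0.598), a homeobox factor of liver development, Abcc3 (0.605), a basolateral exporter of conjugates, and Retsat (0.611), a retinol saturase. Nearest to Ncor1 were Aldh6a1 (0.804), Eif5 (0.804) and Chdh (0.803), which encode enzymes of valine and choline breakdown and a translation initiation factor.

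Division by depth changed the 3 ratios by the same factor and mattered most for Ncor1. Mean assigned reads in Alb-D2KO libraries were 0.932 of those in control libraries. After division by it the ratio was 0.862 for Ncor1 (1.16-fold lower), 0.645 for Klf9 (1.55-fold) and 0.226 for Gadd45g (4.43-fold). With the ratio of total reads, 0.8996, these became 0.893, 0.668 and 0.234. With the ratio of upper quartiles, 0.922, they were 0.872, 0.652 and 0.228. The strongest scaling was by the median gene, a ratio of 0.8896, and gave 0.903 for Ncor1 (1.11-fold lower), 0.676 for Klf9 (1.48-fold) and 0.237 for Gadd45g (4.23-fold). All 3 stayed below 1 under these 4 divisions, and Ncor1 was within the smallest listed fold of 1.21 after each of them.

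**Figure D4:**
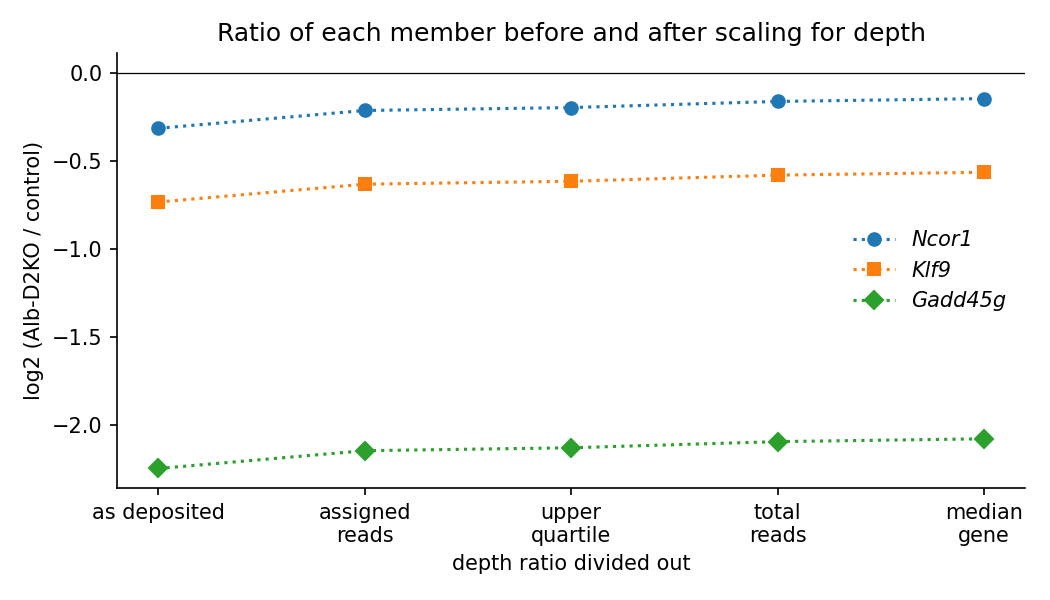
Log2 ratio of Alb-D2KO to control for Ncor1 (circles), Klf9 (squares) and Gadd45g (diamonds) as deposited and after division by the genotype ratio of assigned reads, upper quartile, total reads or median gene. Each line moves towards 0 by the same step, from -0.32 as deposited for Ncor1, and the 3 genes keep their order.

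Within a genotype depth acts on all 3 genes alike, so the ratio of 2 genes' means does not carry it. Klf9 stood at 1.07 times Ncor1 in control and 0.802 times Ncor1 in Alb-D2KO liver, a change of 1.34-fold. Gadd45g stood at 10.01% of Ncor1 in control and 2.62% in Alb-D2KO liver, a 3.82-fold change. Relative to Klf9, Gadd45g went from 9.34% to 3.27%, or 2.86-fold. These ratios show unequal differences among the 3 genes, not that any of them was unaltered. They are ratios of genotype means and have no replicate error here.

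Levels were compared between the genes per length. Means were scaled to 1000000 assigned reads and divided by the longest protein-coding transcript, of 9037 bases for Ncor1, 4486 for Klf9 and 1071 for Gadd45g. In control liver the level was 36.5 scaled counts per kilobase for Klf9, 16.9 for Ncor1 and 14.3 for Gadd45g. In Alb-D2KO liver it was 23.5 for Klf9, 14.6 for Ncor1 and 3.22 for Gadd45g. The control order was that of the mean counts, while in Alb-D2KO liver Klf9 was above Ncor1 per length and below it in mean count. With all annotated exons of a gene merged as its length, a choice made after seeing the data, Klf9 was again first in control liver and the order of Ncor1 (11.9) and Gadd45g (13.0) turned. In Alb-D2KO liver the order was the same with either length. Whether the neighbours in this order differ beyond the spread between animals was not tested.

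The transcripts of Klf9 and Gadd45g had no near-identical copies in the annotation. Of the 31-base words of their transcripts, 4785 for Klf9 and 1172 for Gadd45g, 0 were found in any other gene's transcripts, whichever strand was read. Ncor1 shared 3.14% of its 13186 words, the largest part with Gm6743 (1.68%). Klf9 (ENSMUSG00000033863.2) spans chr19:23141226-23168134 on the plus strand and contains only the microRNA gene Mir1192. Gadd45g (ENSMUSG00000021453.2) spans chr13:51846678-51848468 on the plus strand and overlaps no other gene. Ncor1 (ENSMUSG00000018501.17) spans chr11:62316426-62458541 on the minus strand with 25 annotated transcripts, 15 of them protein-coding. Its 3′ end overlaps Ttc19 over 12026 bases and its 5′ end overlaps Pigl over 82 bases, and the processed pseudogene Gm12276 lies within it over 301 bases, all on the plus strand. Use of strand in the counting was not given in the sources used here, so reads from these overlaps cannot be assigned with certainty. Ttc19, Pigl and Gm12276 were not listed, nor was any other gene starting within 1000 kb of a member, among 60 annotated genes around Ncor1, 28 around Klf9 and 25 around Gadd45g.

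Lists of genes of thyroid hormone action and related functions were set beside the members. As background, 1103 of the 15627 genes in the authors' gene set collection were listed in either direction, or 7.06%. A gene that was not listed has no value in the table, so "not listed" does not mean equal. On these lists, leaving out the members, 18 of 127 genes were listed (14.2%), 14 of them lower and 4 higher. The lists were chosen with earlier results of these data known, so nothing is read from their shares against that background. Of 20 T3-responsive genes of liver, 4 were listed and they went both ways. Thrsp and Fasn, which act in lipogenesis, had ratios of 1.62 and 1.56, while Klf9 and Gadd45g were lower. The median log2 ratio of these 4 was -0.047, against -0.54 over all listed genes. Dio1, Me1, Gpd2 and Hr, other classical targets of T3, were not listed.

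Of 15 genes of hormone supply, 2 were listed (13.3%), against 7.06% over the gene set collection. Both were lower, in a list where 89.4% of genes were lower. Serpina7, encoding thyroxine-binding globulin, had means of 448.0 in control and 266.5 in Alb-D2KO liver (ratio 0.595). Ugt1a1, which glucuronidates bilirubin and thyroxine, had a ratio of 0.666. Dio2 itself was not listed, so the genotype labels were not checked against the targeted gene. The study describes Dio2 as silenced in liver after the neonatal period, and these livers were adult. The receptors Thra and Thrb and their partners Rxra, Rxrb and Rxrg, 5 genes, had 0 listed.

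Among 15 genes of the corepressor complexes, Ncor1 was joined by 1 other, Sin3a (ratio 0.790), the scaffold of a second histone deacetylase complex. Hdac3, Tbl1x, Tbl1xr1 and Gps2, which encode partners of NCoR1 in its complex, were not listed. Of 13 coactivators, Ppargc1b (0.720) and Kat2b (0.812) were listed (15.4%) and lower. Of 20 nuclear receptors that recruit NCoR1, Pparg (0.650) and Nr1d2 (0.784) were listed (10%) and lower. The background was 7.06% listed over the gene set collection, with 89.4% of listed genes lower. After division by the assigned-read ratio, Sin3a (0.847), Kat2b (0.871) and Nr1d2 (0.841), like Ncor1, were no longer past the smallest listed fold.

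The family of Klf9 had other listed members. Of 17 Krüppel-like factor genes 5 were listed (29.4%, counting the chosen Klf9), against 7.06% over the gene set collection. This family too was chosen with earlier results of these data known. All 5 were lower, in a list where 89.4% of genes were lower. They were Klf11 (0.585), Klf9 (0.601), Klf16 (means of 247.2 in control and 175.5 in Alb-D2KO liver), Klf12 (0.761) and Klf13 (0.791). Their median log2 ratio was -0.49, against -0.59 over all lower genes of the list. Klf9, Klf11, Klf13 and Klf16 belong to the subgroup known to bind SIN3A. Only Klf13 had a summed count near that of Klf9, at 39853, and after division by assigned reads 4 of the 5 stayed past the smallest listed fold, Klf13 (0.849) being the exception. In the family of Gadd45g, neither Gadd45a nor Gadd45b was listed, and of 9 family and partner genes Gadd45g was the only one.

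**Figure D5:**
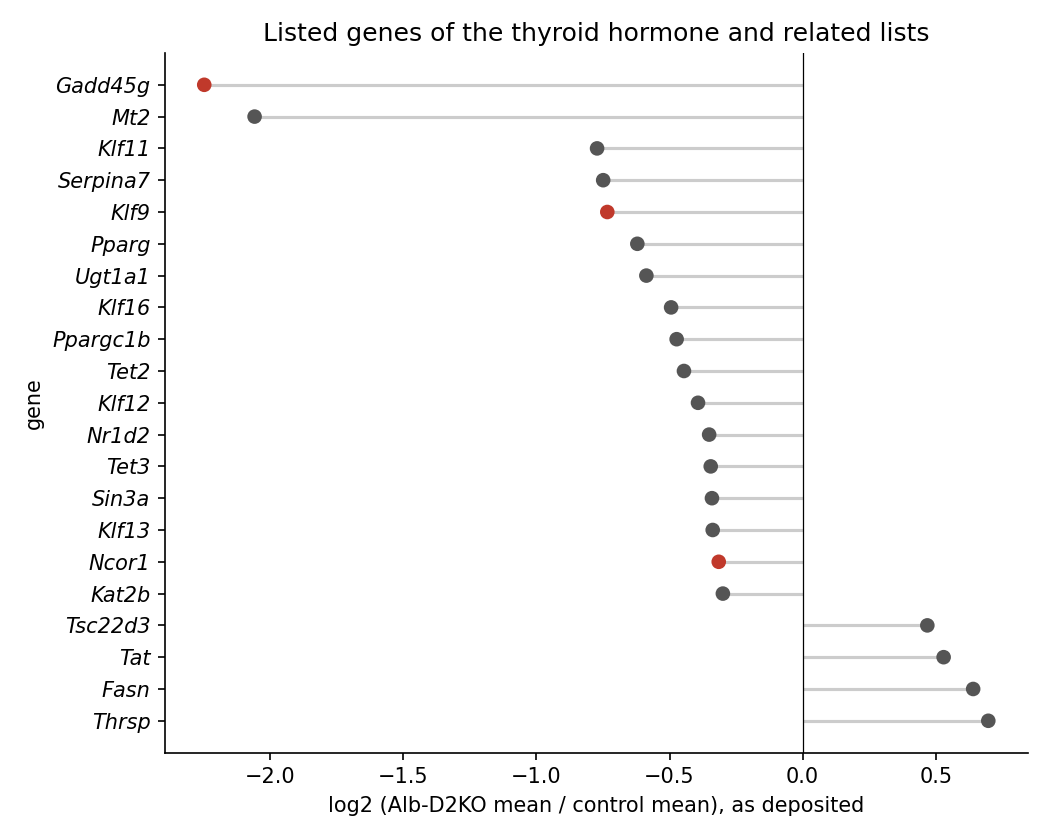
Log2 ratio of the Alb-D2KO mean to the control mean, as deposited, for the 21 listed genes of the thyroid hormone and related lists, ordered by ratio, with the 3 members in red. Gadd45g and Mt2 lie below -2, Klf9 lies among Klf11, Serpina7 and Pparg, Ncor1 is among the smallest differences, and 4 genes (Tsc22d3, Tat, Fasn and Thrsp) lie above 0.

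The authors' own gene groupings stood on either side of their background. In their pathway collection, 6 of 114 genes of thyroid hormone signaling were listed (5.26%) and 3 of 67 of thyroid hormone synthesis (4.48%), against 481 of 6256 (7.69%) over the collection. In the gene set collection the shares, most of them resting on 1 or 3 listed genes, were above the 7.06% over that collection. They were 3 of 26 genes of thyroid hormone receptor binding (11.5%), 1 of 12 of response to thyroid hormone (8.33%), 21 of 175 of transcription corepressor activity and 3 of 19 of transcription corepressor binding (15.8%). The sets of thyroid hormone transport (1 of 7), cellular response to the hormone (1 of 7) and regulation of its signaling (1 of 4) were small. Which genes these were is not given, so the members cannot be placed in them from the files.

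Of 8 hepatocyte markers, among them Alb and Ttr, 0 were listed and so had no value with which to check the tissue label. The symbol Tf was not in the annotation, so only 7 of the 8 could have been listed. Of 32 markers of other liver cells, 4 were listed (12.5%), against 7.06% over the gene set collection. They were Stab2 (0.805) and Kdr (0.789) of sinusoidal endothelium, Cd3e (0.520) of T cells, and Sox9 (1.51) of bile duct cells. The other 3 of 5 sinusoidal endothelial markers, Lyve1, Clec4g and Pecam1, were not listed. Stab2 and Kdr, like Ncor1, lay near the edge of the list. After division by assigned reads (0.863 and 0.846) neither stayed past the smallest listed fold. The part of endothelial RNA in the Ncor1 difference was not tested.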

How the data were processed

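RNA-seq of adult liver from 5 control and 4 Alb-D2KO mice was analysed. Paired-end reads were aligned by the authors with STAR and assigned to GENCODE genes on mm10 by Partek Flow, which estimates counts by expectation maximisation, and whose named normalization, absolute value, does not scale for depth. The authors' deposited tables give total read counts and percent of reads by position for each library, the mean, quartiles and maximum of estimated counts over genes in each library, and, for listed genes, the mean estimated count per genotype and their sum. For each of the 1525 genes the deposited sum matched, within 0.1%, the means multiplied by 4 and 5 libraries. The list holds genes past the authors' thresholds on fold and unadjusted p. Their columns of fold changes, p-values, false discovery rates and enrichment scores were not used, and 4 per-library columns were not used.

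Genotypes came from the labels, and replicate numbers follow accession order. Assigned reads were obtained by applying the exonic percent to the total. Library measures were compared by exact two-sided permutation tests (scipy 1.17.1) over 126 assignments, the smallest possible p being 0.0159. Depth ran from 40234632 to 54504351 reads. Ratios are of the deposited means with no pseudocount or filter, and were also divided by 4 depth ratios. The calculation was tested on simulated data. Gene positions are from GENCODE M21, an earlier release than the authors' on the same build, in which 1496 of 1525 symbols matched. Promoter windows for the 3 genes, all matched, are from RefSeq. One hepatocyte marker symbol, Tf, was not in the annotation.

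The members, gene lists and motifs were chosen with earlier results of these data known. Named genes are the members, for each the 3 listed genes nearest in log2 ratio within 2-fold of its summed count, listed genes of the lists, and listed genes within 500 kb, of which there were none; the nearest protein paralogs were not determined. Genes named outside this rule, chosen after the list was seen, are Atl3, Cds2, Cth, Ttc19, Pigl, Gm12276, Mir1192, Gm6743 and the list members named as not listed.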

Additional observations from a re-analysis of the deposited data

Results flagged for a closer look

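Alb-D2KO replicate 1 had 50322325 total reads, and the next highest Alb-D2KO library had 41723927. The gap was 0.852 of the range of the 4 libraries, past the 95% limit for a single value standing apart. Of 24 groups examined (12 measures in 2 genotypes) 1 stood apart, where 1.2 would by chance. Without that library in the depth ratio, Ncor1 had a ratio of 0.912, Klf9 0.682 and Gadd45g 0.239 after division by assigned reads; the deposited gene means still contain it.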

How the results depend on the processing

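The difference in assigned reads kept its sign with total reads, upper quartile, median and the linear scale, and from -0.18 to -0.065 when each library was left out in turn, with the lowest value without Alb-D2KO replicate 1, over 1.5 times that with all libraries. Over its 14 alternatives the exact permutation p ran from 0.0357 to 0.543. Total reads without Alb-D2KO replicate 1, chosen after seeing the data, gave -0.23 (exact permutation p = 0.0357, the smallest that 5 against 3 libraries allow), where all other alternatives missed 0.05. The member ratios kept their direction in all 13 alternatives each. With division by, in turn, the assigned, upper-quartile, total-read and median ratios, Ncor1 (0.804 as deposited) gave 0.862, 0.872, 0.893 and 0.903, and Klf9 (0.601) gave 0.645, 0.652, 0.668 and 0.676. Gadd45g (0.211) left its counting interval with total reads (0.234) and the median (0.237). With 1 library left out of the assigned-read ratio, Ncor1 ran from 0.839 to 0.912, Klf9 from 0.628 to 0.682 and Gadd45g from 0.220 to 0.239. These shifts follow from dividing by 1 factor. Of the 1363 lower genes, 794 had a summed count no less than 1000, fewer by construction. Of the 21 listed pathway genes, 15 stayed past the smallest listed fold after division by assigned reads.

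No gene-level fit or left-out library was possible for the members, since values per library are not analysed here. No paired analysis was possible because the replicate numbers follow accession order and pair no animals.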

Other observations

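Klf9 also responds to glucocorticoids. Of 12 glucocorticoid-responsive genes 4 were listed (33.3%, counting the chosen Klf9), against 7.06% over the gene set collection. They went both ways. Tat, a tyrosine aminotransferase, had mean estimated counts of 28854 in control and 41647 in Alb-D2KO liver (ratio 1.44), and Tsc22d3, which encodes the leucine zipper protein GILZ, had a ratio of 1.38. Klf9 (0.601) and Mt2 (0.240) were lower. After division by assigned reads the ratios were 1.55, 1.48, 0.645 and 0.257, and all 4 stayed past the smallest listed fold. Fkbp5, Per1 and Sgk1, other members of that list, were not listed.

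Of 11 genes of DNA methylation and demethylation, 2 were listed (18.2%), against 7.06% over the gene set collection. Both were lower, in a list where 89.4% of genes were lower. They were Tet2 (0.734) and Tet3 (0.787), which encode enzymes that oxidise 5-methylcytosine. After division by assigned reads the ratios were 0.787 and 0.844, and only Tet2 stayed past the smallest listed fold. The methyltransferase genes Dnmt1, Dnmt3a and Dnmt3b were not listed.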
